A study of Homo sapiens with 16 samples.

Results

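ChIP-seq peak lists of 3 precipitated libraries from unmodified HCT116 cells were compared: ARID1A, TRIM28 and the histone mark H3K9me3. HCT116 is an established human colon cancer cell line. These cells carried no shRNA, and each library is 1 sample without a replicate. The libraries were picked by their label and antibody, and each was deposited with 2 peak lists, 1 called against an input library and 1 against a normal rabbit IgG library. On chromosomes 1 to 22 and X the 6 lists hold 217739 peaks, of 2616578 in the 20 lists of the series. The rest of the series covers HCT116 cells with a control shRNA (shCtrl) or an shRNA against ARID1A (shARID1A), where SETDB1 was precipitated as well. The study set out to relate ARID1A to heterochromatin. The labels' characteristics and the extraction protocol name different antibody products for TRIM28 and for H3K9me3, and the same product for ARID1A.

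ARID1A is a DNA-binding subunit of the SWI/SNF (BAF) chromatin remodelling complex, which opens nucleosomes at promoters and above all at enhancers. TRIM28 (KAP1, TIF1β) is the corepressor that KRAB zinc finger proteins bring to DNA, where it recruits the methyltransferase SETDB1. SETDB1 places H3K9me3, the mark of constitutive heterochromatin over satellite repeats, retrotransposons and clustered zinc finger genes. In epithelial cells SWI/SNF is known to act at enhancers bound by AP-1 (JUN and FOS proteins) and by TEAD, the DNA-binding partner of the Hippo effectors YAP1 and TAZ.

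The promoters that carry the clearest sequence difference between the libraries are printed first. The 4 below lie in an ARID1A peak of both the input and the IgG list and hold the AP-1 motif TGANTCA, which reads the same on both strands. They are among such promoters with the highest ARID1A fold over input, and they were chosen after the peaks had been seen. Each run is the 250 bases before the gene's start, 5′ to 3′ on the gene's strand, from RefSeq (GRCh38.p14), and capitals mark the motif.
MEF2C (chr5:88785512-88785761, minus strand): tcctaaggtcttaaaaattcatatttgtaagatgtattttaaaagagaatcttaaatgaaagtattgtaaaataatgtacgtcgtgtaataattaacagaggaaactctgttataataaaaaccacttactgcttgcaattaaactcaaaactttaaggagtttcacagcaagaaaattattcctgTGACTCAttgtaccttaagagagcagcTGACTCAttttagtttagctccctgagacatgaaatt
LOC124906088 (chr2:168211200-168211449, plus strand): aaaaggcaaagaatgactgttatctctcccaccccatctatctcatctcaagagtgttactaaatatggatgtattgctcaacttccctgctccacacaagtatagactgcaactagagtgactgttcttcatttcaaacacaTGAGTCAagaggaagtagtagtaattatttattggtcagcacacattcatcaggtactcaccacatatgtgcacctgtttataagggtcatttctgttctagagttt
HRH1 (chr3:11136988-11137237, plus strand): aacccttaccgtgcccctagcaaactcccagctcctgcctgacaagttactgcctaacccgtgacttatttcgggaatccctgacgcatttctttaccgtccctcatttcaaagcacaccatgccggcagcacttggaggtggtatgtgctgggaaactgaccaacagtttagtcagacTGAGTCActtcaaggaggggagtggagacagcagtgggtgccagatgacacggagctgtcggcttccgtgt
LINC01132 (chr1:234723792-234724041, plus strand): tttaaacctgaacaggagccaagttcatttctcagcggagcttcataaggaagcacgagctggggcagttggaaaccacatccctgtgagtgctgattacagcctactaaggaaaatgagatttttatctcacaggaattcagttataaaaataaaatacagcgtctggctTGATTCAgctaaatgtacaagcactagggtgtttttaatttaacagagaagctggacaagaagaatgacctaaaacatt
The promoter of MEF2C, a MADS-box transcription factor, holds the motif 2 times. Its ARID1A fold was 6.68 over input and 5.82 over IgG. The lncRNA LOC124906088 had folds of 4.93 and 2.45. HRH1, the histamine H1 receptor, had folds of 4.93 and 2.86, and the lncRNA LINC01132 had 4.71 and 2.73. A match describes the letters of the window and is not a mapped binding site.

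Promoters with peaks of several libraries were rare, and the first of them are shown for contrast, with CG steps in capitals. TMPRSS7, a membrane-anchored serine protease gene, was the single promoter with a peak of all 3 input lists. INPP4B, a phosphoinositide phosphatase gene, and RNF43, which encodes a ubiquitin ligase that removes WNT receptors, had the highest lower fold among promoters with peaks of ARID1A and TRIM28.
TMPRSS7 (chr3:112039368-112039617, plus strand): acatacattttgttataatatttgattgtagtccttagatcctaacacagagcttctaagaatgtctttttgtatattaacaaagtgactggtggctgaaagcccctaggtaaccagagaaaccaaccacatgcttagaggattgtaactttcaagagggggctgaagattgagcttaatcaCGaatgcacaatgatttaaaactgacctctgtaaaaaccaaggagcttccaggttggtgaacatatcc
INPP4B (chr4:142405860-142406109, minus strand): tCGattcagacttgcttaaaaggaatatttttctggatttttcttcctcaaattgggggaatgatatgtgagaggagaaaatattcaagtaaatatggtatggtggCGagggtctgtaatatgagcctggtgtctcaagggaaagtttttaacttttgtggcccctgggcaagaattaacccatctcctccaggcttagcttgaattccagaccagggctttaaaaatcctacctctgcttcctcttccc
RNF43 (chr17:58417535-58417784, minus strand): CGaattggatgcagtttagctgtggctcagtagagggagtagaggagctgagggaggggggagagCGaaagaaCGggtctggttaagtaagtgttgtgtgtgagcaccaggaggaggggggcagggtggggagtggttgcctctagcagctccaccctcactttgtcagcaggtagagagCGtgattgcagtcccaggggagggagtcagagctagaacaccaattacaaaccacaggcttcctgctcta
At TMPRSS7 the folds over input were 2.83 for ARID1A, 2.10 for TRIM28 and 2.44 for H3K9me3, and no IgG list had a peak there. At INPP4B they were 3.39 for ARID1A and 3.37 for TRIM28, and over IgG only ARID1A had a peak, at 2.80. At RNF43 they were 4.65 for ARID1A and 3.23 for TRIM28, with 3.60 and 2.46 over IgG. The printed runs hold 1, 2 and 4 CG steps in that order, and none of the 3 promoters holds the AP-1 motif. A second RNF43 promoter, chr17:58402672-58402971, does hold it, with ARID1A at 4.62-fold and TRIM28 at 2.38-fold over input. The shared promoters of ZFHX3-AS3, LINC00513 and ZBTB38 hold it too, and the remaining promoters with input peaks of 2 or more libraries do not.

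The lists differ in length and strength, and this bounds every comparison. Over input they hold 29576 ARID1A, 32927 TRIM28 and 11374 H3K9me3 peaks, and over IgG 52522, 68047 and 23293. All lists run down to a −log10 p between 1.30 and 1.32, so most entries are weak. After the caller's correction q was 1 for 87.1% of ARID1A, 99.3% of TRIM28 and 99.5% of H3K9me3 input peaks. Peaks with q at most 0.05, called strong below, number 835, 67 and 15 over input and 823, 396 and 257 over IgG. The files state no read totals. Fold and −log10 p together gave back the fragments at the summit, with a median of 11, 10 and 12 over input. The relative depths recovered the same way were 1.47, 1.35 and 1.72 times the input library for ARID1A, TRIM28 and H3K9me3, so the library with the fewest peaks was the deepest. The input control was 0.883 times as deep as the IgG control for each of the 3, and the controls are therefore treated as shared. Overlaps between lists are given also with the controls crossed, 1 list over input and the other over IgG, so that the pair has no control in common. Within a library, 60.2% of ARID1A, 38.4% of TRIM28 and 33.9% of H3K9me3 input peaks overlapped a peak of its own IgG list. Among strong peaks 816 of 835, 52 of 67 and 11 of 15 did.

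One check bears on the labels. Of the 835 strong ARID1A peaks, 778 (93.2%) overlapped a peak of the library labelled shCtrl H3K9me3 and 91.9% one of shCtrl SETDB1, against 44.8% for shCtrl ARID1A. For all ARID1A input peaks these shares were 27.3%, 28.9% and 13.3%. Of the 15 strong H3K9me3 peaks, 3 lay in shCtrl H3K9me3, 9 in shARID1A H3K9me3 and 10 in shARID1A TRIM28. For all H3K9me3 input peaks the shares were 5.68%, 5.31% and 9.13%. Of the 67 strong TRIM28 peaks, 10 lay in shCtrl TRIM28 and 32 in shARID1A TRIM28. For all TRIM28 input peaks the shares were 4.68% and 7.32%. The lengths of the shRNA lists were not equalised in this check. Which library, if any, departs from its label cannot be told from the lists. Names below follow the labels. The shRNA libraries enter other results only through the bins of 100 kb, which are those with a summit in any list of the series. Peaks per Mb by chromosome use the length of these bins. No RNA was measured, so the cell line could not be checked by marker expression.

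Strong ARID1A peaks occupied a different kind of sequence from strong TRIM28 and H3K9me3 peaks. Strong ARID1A peaks lay in genes: 679 of 835 (81.3%) fell in a protein-coding or lncRNA gene extended by 1000 bp, against 71.3% of all ARID1A peaks. Strong TRIM28 peaks did so in 6 of 67 (8.96%) and strong H3K9me3 peaks in 3 of 15, against 59.9% and 57.8% of all their peaks. Instead, 56 of 67 strong TRIM28 peaks (83.6%) and 10 of 15 strong H3K9me3 peaks (66.7%) lay in the 30 stretches of at least 1 Mb that hold no annotated gene. These stretches span 177 Mb and include centromeric sequence. Only 6 strong ARID1A peaks (0.719%) were there. Over IgG the shares were 86.9% for TRIM28, 76.7% for H3K9me3 and 6.93% for ARID1A, again far lower for ARID1A. Of all peaks over input, 2.49%, 2.98% and 0.318% were in such stretches.

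**Figure D1:**
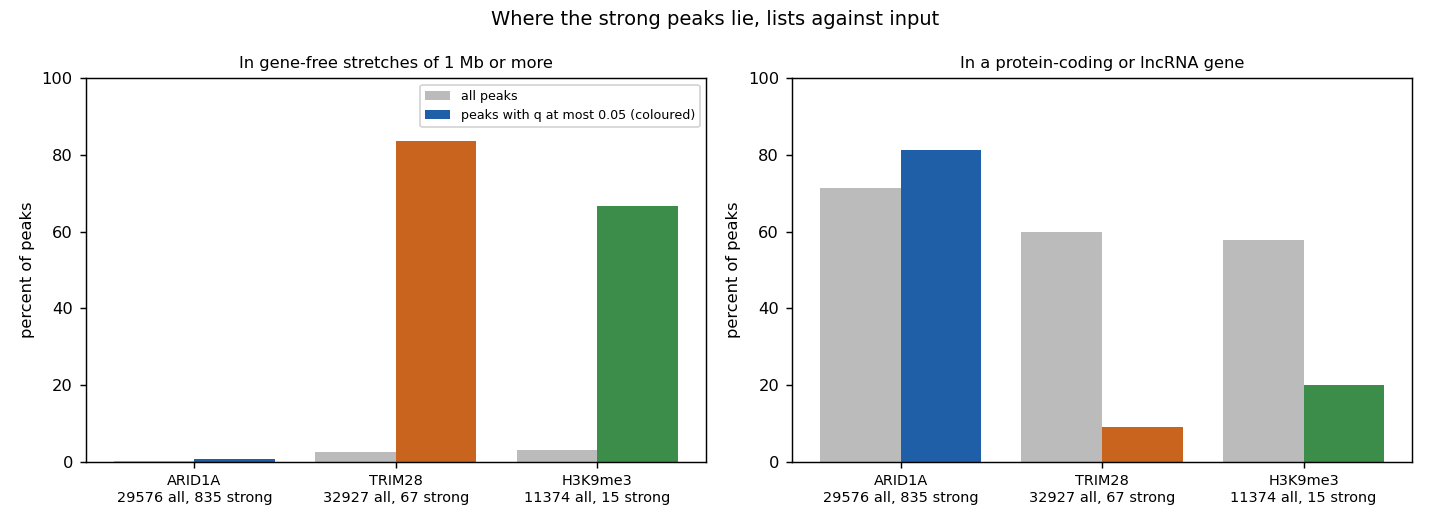
Percent of peaks (vertical axis) in gene-free stretches of at least 1 Mb (left) and in a protein-coding or lncRNA gene (right), for all peaks (grey) and peaks with q at most 0.05 (coloured) of the lists over input. Strong TRIM28 and H3K9me3 peaks sit at 83.6% and 66.7% in gene-free stretches, and strong ARID1A peaks at 81.3% in genes.

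The tallest TRIM28 and H3K9me3 peaks were partly the same places. The TRIM28 peak with the lowest p, chr22:14754881-14755312, held 78 fragments at 5.33-fold over input, and the H3K9me3 peak at the same place held 72 fragments at 3.90-fold. Over IgG the folds there were 3.16 and 2.42. At chr13:17751862-17752181 TRIM28 had 72 fragments at 3.87-fold and H3K9me3 was 3.72-fold. Over IgG TRIM28 was 2.04-fold there and H3K9me3 had no peak. At chr21:12780040-12780348 the folds were 5.61 for TRIM28 and 4.90 for H3K9me3, and 4.21 and 5.52 over IgG. Of these 3 places ARID1A had an input peak at the one on chromosome 22, at 2.75-fold. All 3 libraries met at chr19:24595097-24595441, with H3K9me3 at 5.09-fold, TRIM28 at 3.90-fold and ARID1A at 5.01-fold over input, and there only H3K9me3 kept a peak over IgG (2.87-fold). The control itself was high at many such places: at chr17:26603751-26604057 the local background was 203 fragments at control depth and TRIM28 reached 429 fragments at only 1.56-fold, while the genome-wide background was 2.15. Reads from repeats with many copies cannot be assigned to 1 copy, so these positions are uncertain. The part of this control background in the peak calls was not tested.

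Strong peaks met the other libraries at higher shares than weak ones, in each pair described here. A TRIM28 peak lay under 12 of 15 strong H3K9me3 peaks (80%, exact Clopper-Pearson 95% interval 51.9 to 95.7) and under 944 of 11359 others (8.31%). With the TRIM28 list over IgG the counts were 9 of 15 and 501 of 11359. An H3K9me3 peak lay under 23 of 67 strong TRIM28 peaks (34.3%, 23.2 to 46.9) and under 2.84% of others. With the H3K9me3 list over IgG 21 of 67 did. Strong ARID1A peaks met TRIM28 in 160 of 835 cases (19.2%, 16.5 to 22), against 5.78% of the others. With the TRIM28 list over IgG the shares were 5.03% (42) and 2.53%. They met H3K9me3 in 51 cases (6.11%), against 2.2% of the others, and with that list over IgG in 10 (1.20%), against 0.630%. An ARID1A peak lay under 5 of 15 strong H3K9me3 peaks, against 5.93% of the others. Strong ARID1A peaks were also wider, with a median of 1330 bp against 345 bp for all ARID1A input peaks. A wider peak has more room for an overlap of 1 bp, and the part of width in these shares was not tested. All intervals cover counting error only.

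Over whole lists few peaks were shared. A TRIM28 peak overlapped 1820 of 29576 ARID1A peaks by at least 1 bp (6.15%, 5.88 to 6.43), an H3K9me3 peak 684 ARID1A peaks (2.31%, 2.14 to 2.49), and an H3K9me3 peak 956 of 32927 TRIM28 peaks (2.90%, 2.72 to 3.09). Seen from the shorter list, 8.41% of H3K9me3 peaks met TRIM28 and 5.97% met ARID1A. With the ARID1A list over input and the others over IgG, the ARID1A shares were 2.60% for TRIM28 and 0.646% for H3K9me3, both lower than with a shared control. The TRIM28 share that met H3K9me3 was 1.59% in the same arrangement. With the lists trimmed to equal length the 3 shares were 3.52%, 2.92% and 3.86%, with TRIM28 at H3K9me3 then the highest.

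Distances between summits set these overlaps against their surroundings. The near to far ratio is the number of summits per kb within 1 kb divided by that at 50 to 100 kb, so 1 means no local excess. H3K9me3 summits around TRIM28 summits had a ratio of 2.73 (2.60 to 2.86) over input and 2.79 (2.70 to 2.87) over IgG. With crossed controls it was 1.49 (1.41 to 1.58) and 1.54 (1.45 to 1.64). TRIM28 summits around ARID1A summits had 2.13 (2.06 to 2.2) over input and 1.77 over IgG, and 1.07 (1.02 to 1.12) and 1.46 (1.41 to 1.52) with crossed controls. H3K9me3 summits around ARID1A summits had 1.99 (1.88 to 2.11) and 1.85, and with crossed controls 0.817 (0.745 to 0.895), below 1, and 1.27 (1.18 to 1.36). The local excess was steepest for TRIM28 and H3K9me3: within 100 bp the density was 5.87 times the far level over input, 7.42 over IgG, and 3.25 and 3.23 with crossed controls. For ARID1A with H3K9me3 it was 3.36 over input, 4.34 over IgG, and 1.03 and 1.82 crossed. TRIM28 and H3K9me3 were the pair with a ratio of at least 1.49 under every choice of control, while 1 of the 2 crossed values was at or below 1.07 for both ARID1A pairs.

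**Figure D2:**
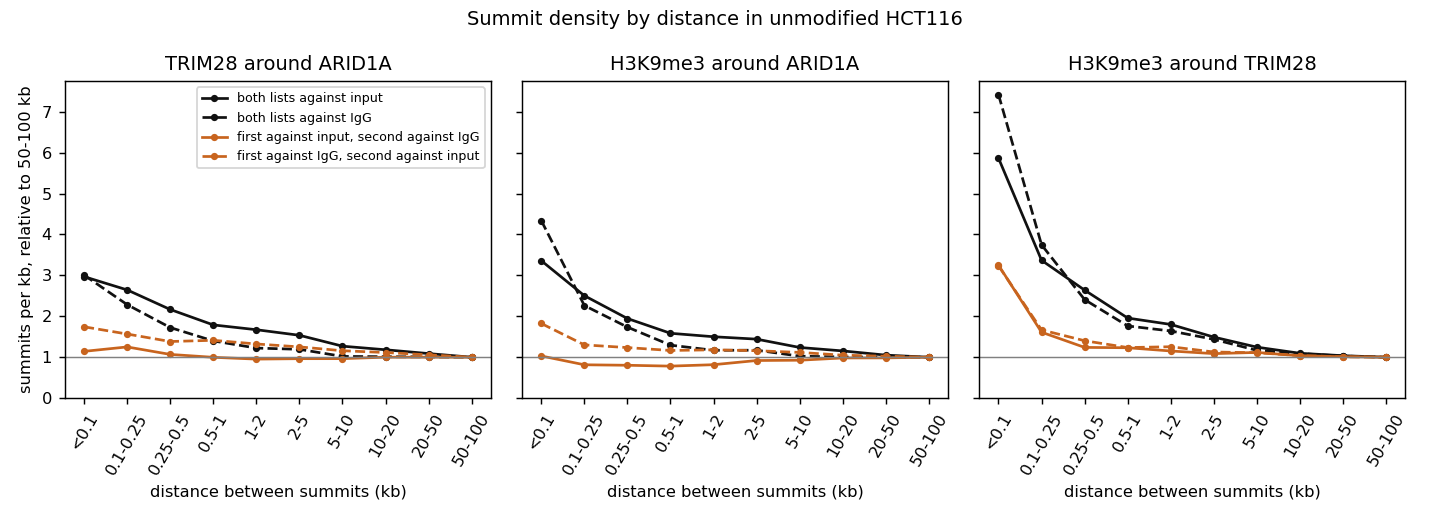
Summits of the second library per kb, relative to 50 to 100 kb (vertical axis), by distance from summits of the first (horizontal axis, kb), for 3 pairs of libraries and 4 combinations of control. Black lines share a control and orange lines do not; the orange lines for H3K9me3 around TRIM28 reach 3.25 and 3.23 within 0.1 kb, and those for H3K9me3 around ARID1A 1.03 and 1.82.

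Median distances between nearest summits ran from 11.3 to 51.6 kb over input. From an H3K9me3 summit over input the nearest TRIM28 summit was 11.3 kb away and the nearest ARID1A summit 23.6 kb. From an ARID1A summit they were 12.5 kb to TRIM28 and 47.6 kb to H3K9me3. From a TRIM28 summit the nearest ARID1A summit was 27.8 kb and the nearest H3K9me3 summit 51.6 kb away. Within 1 kb, 14.0% of H3K9me3 summits had a TRIM28 summit and 9.35% an ARID1A summit.

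Joining overlapping input peaks gave 70499 regions. Of these, 67456 (95.7%) carried 1 library, 2833 (4.02%) carried 2 and 210 (0.298%) carried all 3. The pairs were 1588 regions with ARID1A and TRIM28, 766 with TRIM28 and H3K9me3, and 479 with ARID1A and H3K9me3. Gene-free stretches held 16.4% of the TRIM28 and H3K9me3 regions, 1.13% of the ARID1A and TRIM28 regions and 1.51% of all regions. Chromosome 8 held 12.3% of all regions, 20.9% of ARID1A and TRIM28 regions, 29.1% of TRIM28 and H3K9me3 regions, 35.1% of ARID1A and H3K9me3 regions and 32.4% of those with all 3. Peaks of the IgG lists lay at 170 of the 766 TRIM28 and H3K9me3 regions for both (22.2%), at 279 of 1588 for ARID1A and TRIM28 (17.6%) and at 42 of 479 for ARID1A and H3K9me3 (8.77%).

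The 210 regions with all 3 libraries became 71 with lists of equal length. Of the 210, 16 also held a peak of all 3 IgG lists. Of these 16, 7 were in gene-free stretches, 4 were on chromosome 8 and 3 were in a gene. The region with the highest lowest fold, chr8:44588532-44589047 in a gene-free stretch, had 3.39 for ARID1A, 3.45 for TRIM28 and 3.5 for H3K9me3 over input, and 3.48, 3.70 and 3.75 over IgG. At NDST4, a heparan sulfate N-deacetylase gene, the region chr4:114955196-114955578 had folds over input of 2.51 for ARID1A, 2.66 for TRIM28 and 3.65 for H3K9me3, on 10, 10 and 18 fragments. At PTPRN2, a receptor-type phosphatase family gene of secretory granules, chr7:158146947-158147756 had 2.48, 3.58 and 5.01, on 35, 33 and 57 fragments, and 2.78, 3.13 and 4.36 over IgG. At DOCK1, an activator of the GTPase RAC1, chr10:126947766-126948390 had 1.28, 1.78 and 2.01, on 74, 78 and 88 fragments over a raised control. Over IgG the DOCK1 folds were 1.61, 2.37 and 2.03. H3K9me3 had the highest of the 3 folds over input at each of these genes, while over IgG TRIM28 was the highest at DOCK1.

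The strongest ARID1A peaks found with both controls were wide and lay mostly without the other libraries. They are given 1 per gene, ordered by −log10 p. The first was in TANC2, a synaptic scaffold gene (chr17:63274345-63276502), with 38 fragments at 8.43-fold over input and 6.27-fold over IgG. GSDMC, a pore-forming gasdermin gene (chr8:129707248-129709644), had 7.34-fold. NXN, a redox regulator of WNT signalling (chr17:932282-934224), had 6.87-fold. OLA1, an Obg-like ATPase gene, and the lncRNA LOC105373910 each had 7.56-fold. These 5 peaks were 1943 to 2684 bp wide. DNMBP, a scaffold and CDC42 exchange factor gene, had 6.88-fold over the widest peak of the 10 at 4024 bp. PCCA (propionyl-CoA carboxylase) had 7.34-fold, ARHGAP18 (a GTPase-activating protein) 7.12-fold, MACF1 (an actin and microtubule crosslinker) 6.88-fold and PARD3 (a cell polarity protein) 6.90-fold. These 10 had 5.01-fold to 6.55-fold over IgG. GSDMC and ARHGAP18 had a TRIM28 peak over input (2.48-fold and 2.66-fold) and none over IgG, the other 8 had none, and no H3K9me3 peak lay at any of the 10. Strong ARID1A peaks had a median width of 1330 bp, against 306 bp for strong TRIM28 and 327 bp for strong H3K9me3 peaks.

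In genes, the TRIM28 and H3K9me3 peaks were narrower and lower. The first TRIM28 peaks by the same rule were in CCDC200 (3.64-fold over input, 4.10-fold over IgG) and in the lncRNA FAM230E (4.11-fold and 4.06-fold). ZNF180, a KRAB zinc finger gene, carried 5.01-fold TRIM28 over 1485 bp at chr19:44476176-44477660, 5.16-fold over IgG, with H3K9me3 at 2.54-fold over input and 2.60-fold over IgG and no ARID1A peak. The others were PTPRN2 (3.58-fold), LPA (apolipoprotein(a), 3.46-fold), NF1 (a RAS GTPase-activating protein, 4.31-fold), CPEB3 (an RNA-binding translation regulator, 4.10-fold), and SORCS3, ATRNL1 and LOC124902869 (3.84-fold each). For H3K9me3 they were PTPRN2 (3.30-fold, 106 fragments), SNPH (syntaphilin, which anchors mitochondria in axons, 5.55-fold), DUX4 (1.99-fold), CACNA1C (a calcium channel subunit, 2.19-fold), ZNF469 (3.17-fold), DOCK1 (2.01-fold), ZNF670-ZNF695 and TBC1D1 (3.84-fold each), ZNF12 (3.77-fold) and FAM90A24 (3.66-fold). Only CCDC200, FAM230E, PTPRN2 and ZNF180 for TRIM28, and PTPRN2 and SNPH for H3K9me3, were strong peaks (q at most 0.05). The other genes listed here had peaks above that cut, while the ARID1A peaks ranked by the same rule were all strong. At SNPH (chr20:1301705-1302123) TRIM28 had 3.28-fold and ARID1A 2.87-fold over input, and over IgG only H3K9me3 had a peak, at 2.38-fold. Of the TRIM28 genes, PTPRN2, ZNF180 and FAM230E had an H3K9me3 peak over input at the same place, and PTPRN2 and ATRNL1 an ARID1A peak. DUX4, FAM90A24, FAM230E and the repeated exons of LPA have near-identical copies, so their values are uncertain.

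Genes were then counted. Of 19974 protein-coding genes extended by 1000 bp, 25.8% had an ARID1A peak over input and 44.2% over IgG. For TRIM28 the shares were 28.4% and 49.2%, and for H3K9me3 13.6% and 26.3%. With lists of equal length the input shares were 14.0%, 14.7% and 13.6%. Over input 1546 genes had all 3, 2383 had 2, 4142 had 1 and 11903 had none. Long genes collected most summits. ARID1A summits over input were most numerous in PCDH7, a protocadherin gene, with 160 (142 over IgG), against 29 for TRIM28 and 4 for H3K9me3. VTI1A, a vesicle SNARE gene, had 120 (67 over IgG) and NSMCE2, a SUMO ligase gene, 115 (69). RAD51B, a recombination factor gene, had 86 (98 over IgG) and ZBTB20, a zinc finger repressor gene, 85 (85). TRIM28 summits over input were most numerous in CDH13, a GPI-anchored cadherin gene, with 45, beside 27 for H3K9me3 and 10 for ARID1A. Over IgG CDH13 had 27, 22 and 14 in that order. H3K9me3 summits over input were most numerous in CSMD3, with 31, beside 31 for TRIM28 and 8 for ARID1A. Over IgG CSMD3 had 41, 60 and 18 in that order. SORCS1 had 18 H3K9me3, 16 TRIM28 and 1 ARID1A summits over input, and 25, 31 and 10 over IgG.

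Gene lists were described by counts and by summits per Mb of gene relative to all protein-coding genes, since genes differ in length. The AP-1 and Hippo list (JUN and FOS family, YAP1, WWTR1, TEADs and their partners) had ARID1A summits at 5.28 times the level of all genes over input and 3.01 times over IgG (4.69 and 2.51 without TEAD1). Peaks lay in 13 of its 26 genes (50.0%), against 25.8% of all genes. TRIM28 stood at 1.92 and 0.864, and H3K9me3 at 1.84 and 0.916. TEAD1 held 32 ARID1A summits over input and 38 over IgG, WWTR1 (TAZ) 28 and 31, YAP1 22 and 15, and STK3, a Hippo kinase gene, 26 and 11. These Hippo genes thus held most of the list's 138 summits over input, and no level was computed without WWTR1, YAP1 and STK3. The highest ARID1A fold in the list was at WWTR1, 6.24 over input and 5.47 over IgG at chr3:149579075-149582798. Of the AP-1 genes, ATF3 held 4 ARID1A summits over input and 6 over IgG, FOSL2 2 and 1, and the rest none over input. JUNB, FOS, FOSB and FOSL1 had no ARID1A summit in either list. STK3 on chromosome 8 held 11 of the 14 H3K9me3 summits in the list, and without it H3K9me3 stood at 0.565.

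The intestinal and WNT list had ARID1A summits at 4.53 times the level of all genes over input and 2.72 over IgG (3.62 and 2.39 without TCF7L2). Peaks over input lay in 13 of 26 genes (50%), against 25.8% of all genes. TCF7L2, the main TCF factor of intestinal WNT signalling, held 31 over input and 25 over IgG. RNF43 held 30 and 16, and ZNRF3, its paralogue, 21 and 25. TCF7L2, RNF43 and ZNRF3 thus held most of the 103 summits over input, and no level was computed without RNF43 and ZNRF3. TCF7L2 and RNF43 lie on chromosomes 10 and 17. The median control background under ARID1A input peaks was 2.63 and 2.98 fragments there, against 2.23 over all. More DNA copies and more precipitated signal cannot be told apart there. At TCF7L2 the highest ARID1A fold was 5.27 over input and 2.77 over IgG. TRIM28 stood at 2.11 and 1.07 in this list, and H3K9me3 at 1.82 and 1.05. RNF43 held 13 of the 42 TRIM28 summits over input and 4 over IgG. Without TCF7L2, H3K9me3 stood at 1.04 over input. CDX2, KRT20, MUC2 and ASCL2 had no ARID1A summit in either list.

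Zinc finger genes gave the opposite order in summits per Mb. Of 250 ZNF genes on chromosome 19, 3 had an ARID1A peak over input (1.20%) and 28 over IgG (11.2%), with summits at 0.0292 and 0.180 times the level of all genes. TRIM28 peaks lay in 60 (24.0%) and 139 (55.6%), at 1.00 and 1.62 times. H3K9me3 peaks lay in 35 (14.0%) and 89 (35.6%), at 1.61 and 2.68 times. Of all genes 25.8% over input and 44.2% over IgG had an ARID1A peak. For TRIM28 these shares were 28.4% and 49.2%, and for H3K9me3 13.6% and 26.3%. By gene count over input H3K9me3 was thus near all genes and TRIM28 below them, and over IgG both were above. In the 267 ZNF genes of other chromosomes ARID1A stood at 0.904 and 0.804, TRIM28 at 1.54 and 1.43, and H3K9me3 at 2.52 and 2.09. The highest folds were ZNF180 for TRIM28 on chromosome 19, ZNF175 for H3K9me3 there (2.91 over input, 2.04 over IgG), and ZNF704 for ARID1A elsewhere (5.01 and 3.76). In clustered protocadherin genes, another target of H3K9me3, the H3K9me3 level was 2.12 over input and 4.17 over IgG, and TRIM28 was 1.49 and 2.11. These genes overlap and share summits. Olfactory receptor genes had ARID1A at 0.362 and 0.360.

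**Figure D3:**
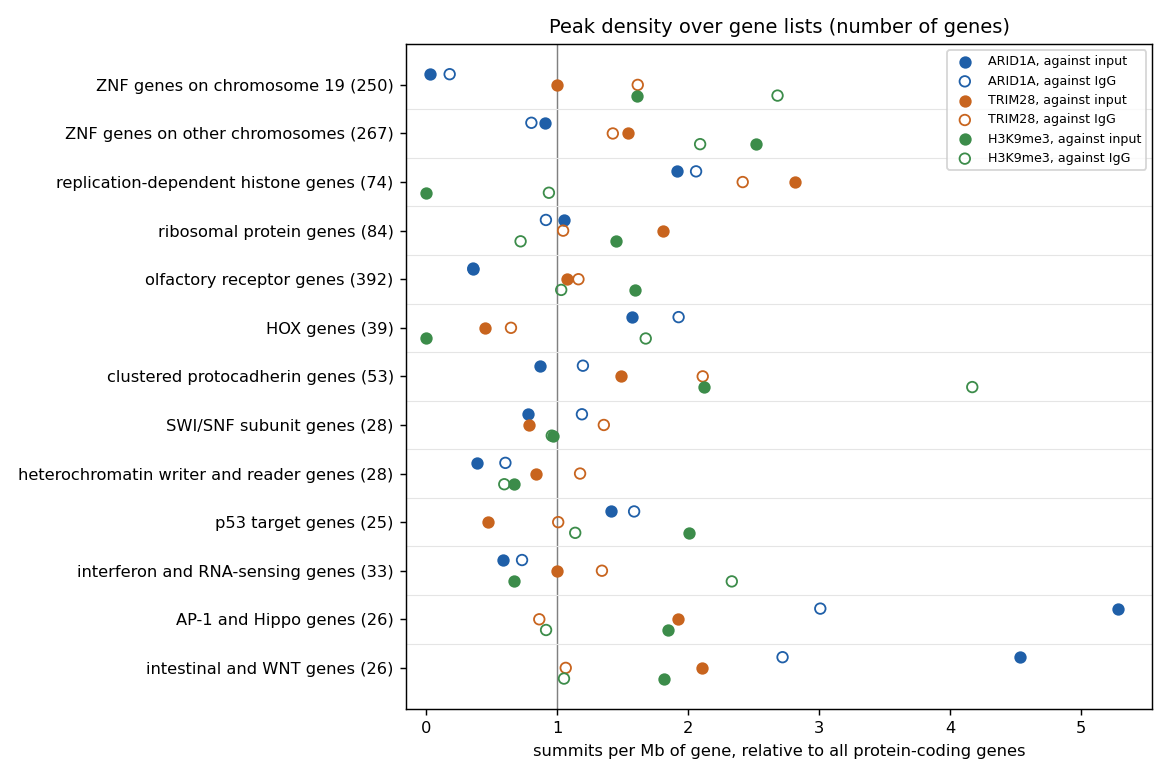
Summits per Mb of gene relative to all protein-coding genes (horizontal axis) for 13 gene lists, with the number of genes in brackets; filled points are lists over input and open points lists over IgG. ARID1A lies at 5.28 and 4.53 in the AP-1 and Hippo and the intestinal and WNT lists and at 0.0292 in ZNF genes on chromosome 19, where H3K9me3 lies at 1.61 over input and 2.68 over IgG.

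The remaining lists hold few summits each. In p53 target genes ARID1A peaks lay in 11 of 25 (44.0%, against 25.8% of all genes), at 1.41 and 1.59 times, led by POLK, a translesion polymerase gene, at 4.27-fold. In SWI/SNF subunit genes ARID1A peaks lay in 7 of 28 (25%, near the 25.8% of all genes), at 0.779 times over input and 1.19 over IgG, led by PBRM1 at 4.61-fold over input and 4.77-fold over IgG, and ARID1B held 13 of the 25 summits. Heterochromatin writer and reader genes had ARID1A at 0.388, TRIM28 at 0.841 and H3K9me3 at 0.668 times the level over input. Over IgG these were 0.606, 1.18 and 0.597. Interferon and RNA-sensing genes had 0.585, 1.00 and 0.671 over input and 0.733, 1.34 and 2.33 over IgG. H3K9me3 there was thus below all genes with 1 control and above with the other. Replication-dependent histone genes, which are short, had ARID1A peaks over input in 6 of 74 (8.11%) and TRIM28 peaks in 7 (9.46%), below the 25.8% and 28.4% of all genes. Per Mb the same list stood above all genes, with ARID1A at 1.92 over input and 2.06 over IgG and TRIM28 at 2.82 and 2.42, on 7 and 9 summits over input. H3K9me3 had no peak there over input and 2 summits over IgG. HOX genes had peaks over input in 5 (12.8%), 1 (2.56%) and 0 of 39, at 1.57, 0.447 and 0 times the level per Mb. Over IgG the HOX levels were 1.93, 0.648 and 1.68. Ribosomal protein genes had peaks over input in 10 (11.9%), 16 (19%) and 4 (4.76%) of 84, at 1.05, 1.81 and 1.45 times. Over IgG their levels were 0.915, 1.05 and 0.721. The input shares of both lists were below those of all genes (25.8%, 28.4% and 13.6%). Among the genes of the precipitated proteins, ARID1A held 3 ARID1A, 2 TRIM28 and 2 H3K9me3 peaks over input, none above 2.73-fold. TRIM28 and SETDB1 held no peak of any input list. Over IgG they held 1 and 3 TRIM28 peaks, up to 2.48-fold and 2.43-fold.

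Gene starts separated the libraries as well. Summits of ARID1A within 1 kb of a start had 1.71 times the far density over input (1.62 to 1.81) and 1.71 over IgG (1.65 to 1.78). TRIM28 had 1.23 (1.15 to 1.32) and 1.12 (1.07 to 1.17), and H3K9me3 1.00 (0.880 to 1.14) and 0.978 (0.899 to 1.06). Most peaks lay elsewhere, since 3.54%, 2.06% and 1.68% of input peaks were within 1 kb of a start. Of 34789 promoter windows of 300 bases in RefSeq (250 before to 50 after the start), 1.53% overlapped an ARID1A input peak, 0.767% a TRIM28 peak and 0.19% an H3K9me3 peak. Of all windows 808 had 1 library, 27 had 2 and 1 had all 3.

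The AP-1 motif shown in capitals for MEF2C was frequent in ARID1A promoters. TGANTCA was present in 140 of 532 windows with an ARID1A input peak (26.3%, 22.6 to 30.3) and in 116 of 369 with a peak in both ARID1A lists (31.4%, 26.7 to 36.4). All windows held it in 7.69%. TRIM28 windows over input held it in 8.61% (5.54 to 12.7) and H3K9me3 windows in 6.06% (1.68 to 14.8). The windows with a peak of both TRIM28 lists held it in 13 of 89 (14.6%, 8.01 to 23.7). Over input ARID1A and TRIM28 windows had 53.4% and 52.7% G or C, below the 57.5% of all, and over IgG they had 59.7% and 58.0%, above it. The TEAD motif GGAATG, searched on both strands, was in 17.7% of ARID1A, 17.2% of TRIM28 and 22.7% of H3K9me3 windows over input and 14.1% of all, so its share was close in ARID1A and TRIM28 windows.

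**Figure D4:**
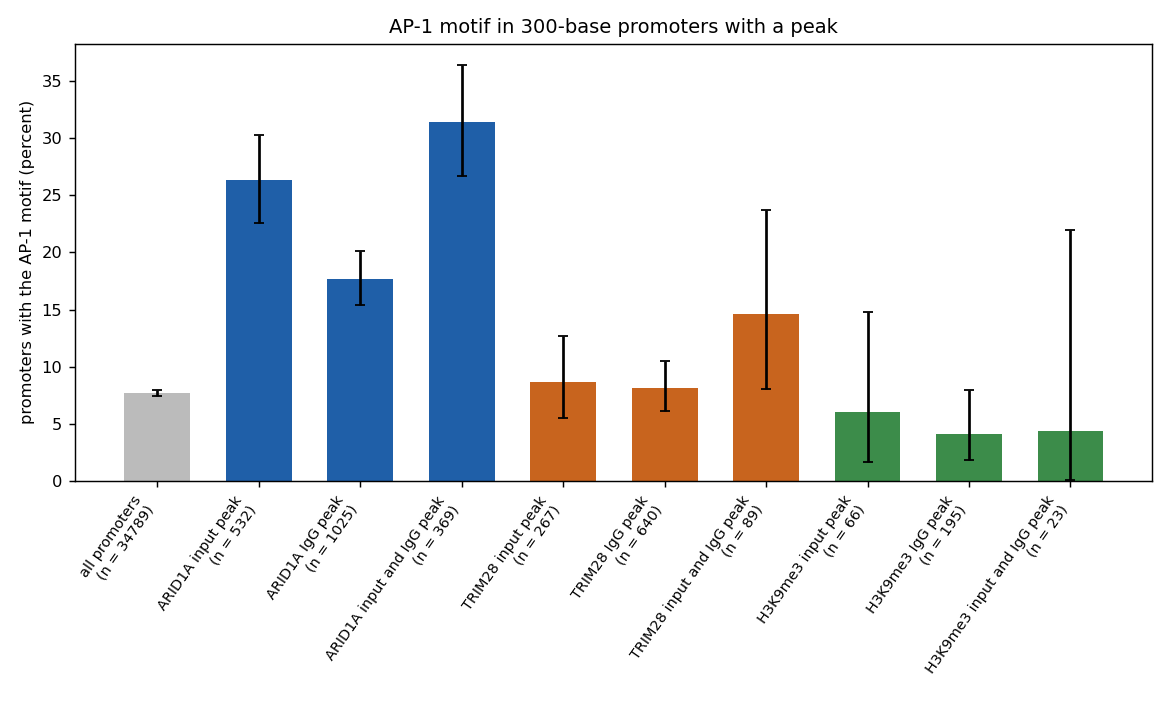
Percent of 300-base promoter windows with TGANTCA (vertical axis) for all windows and for windows with a peak over input, over IgG or in both lists of each library; bars are shares and whiskers exact 95% binomial intervals. ARID1A windows lie at 26.3%, 17.7% and 31.4%, and all windows at 7.69%.

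Along the genome, 29049 bins of 100 kb held a summit of any list of the series, and other bins were not counted. Of these bins, 38% had an ARID1A peak over input, 51.4% a TRIM28 peak and 25% an H3K9me3 peak. All 3 were present in 3680 bins (12.7%), and 10273 had none of the 3 over input. With lists of equal length the shares were 19.3%, 26.7% and 25%. At least 10 peaks lay in 403 bins for ARID1A, 145 for TRIM28 and 9 for H3K9me3, a count that depends on list length. The top 1% of bins held 17.8% of ARID1A, 9.19% of TRIM28 and 14.7% of H3K9me3 peaks, so ARID1A was the most concentrated by both measures and TRIM28 and H3K9me3 changed order. The fullest ARID1A bin, chr11:122100001-122200000 at MIR100HG and BLID, had 54 peaks over input and 42 over IgG. The next were at NSMCE2 (51 and 38), PCDH7 (48 and 41), PHLDB2, ABHD10 and TAGLN3 (48 and 27) and VTI1A (47 and 25). TRIM28 had 16 peaks over input and none over IgG in the MIR100HG bin, and 28 and 7 in the VTI1A bin, its second fullest. TRIM28 bins with no gene at chr2:226600001-226700000 and chr2:226500001-226600000 had 26 and 24 peaks over input, 8 and 12 over IgG. Of the 5 fullest H3K9me3 bins 4 were on chromosome 8, with 10 to 12 peaks over input and 0 to 3 over IgG. The other, at CEP112 on chromosome 17, had 11 over input and 4 over IgG. Among the 100 fullest bins of each list, ARID1A and TRIM28 shared 23, TRIM28 and H3K9me3 31, ARID1A and H3K9me3 14, and all 3 lists 12, with the input library shared by all.

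Chromosome 8 stood apart in the lists over input. It held 12% of ARID1A, 12.2% of TRIM28 and 18.2% of H3K9me3 input peaks, but 4.92%, 5.25% and 7.1% of the IgG lists. Densities by chromosome use the length of the 100 kb bins with a summit in any list of the series. For chromosome 8 the density over input was 24.5, 27.7 and 14.3 peaks per Mb, against 10.2, 11.3 and 3.92 for all chromosomes. Over IgG it was 17.9, 24.7 and 11.4, against 18.1, 23.4 and 8.02. The local control background under ARID1A input peaks had a median of 2.65 fragments there, against 2.23 over all and 2.10 on chromosomes 2 to 7. It was also raised on chromosomes 10 (2.63), 16 (2.55), 17 (2.98) and 19 (2.80), and less so on chromosome 22 (2.36). More DNA copies and more precipitated signal cannot be told apart from these lists. Chromosome X was nearly empty, with 30, 25 and 7 peaks over input and 89, 152 and 55 over IgG. Chromosome 19, the richest in zinc finger genes, had 4.94 ARID1A, 4.23 TRIM28 and 2 H3K9me3 peaks per Mb over input and 21.1, 28.2 and 10.8 over IgG, the latter above the level of all chromosomes in each library.

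**Figure D5:**
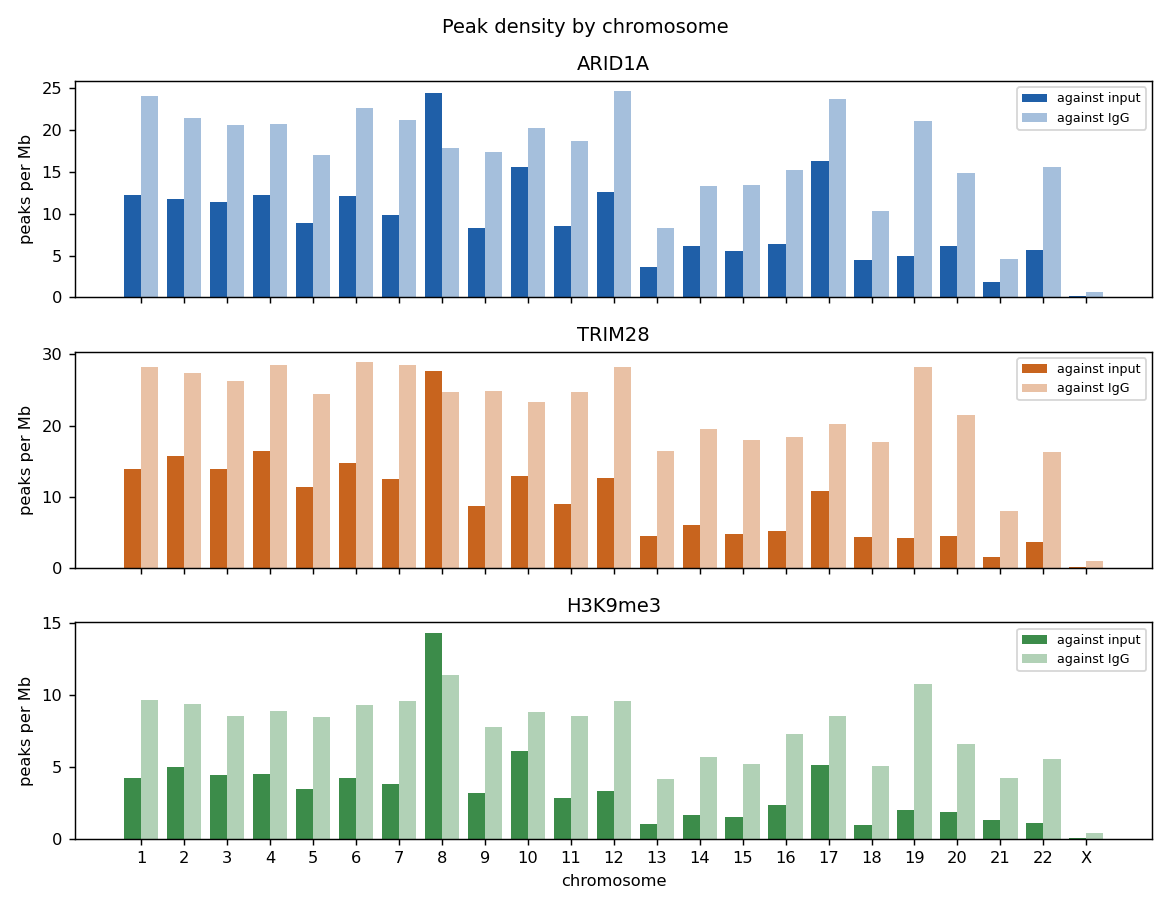
Peaks per Mb (vertical axis) by chromosome (horizontal axis) for each library, with Mb counted over 100 kb bins that hold a summit of any list. Dark bars are lists over input and light bars lists over IgG. Chromosome 8 reaches 24.5, 27.7 and 14.3 peaks per Mb over input for ARID1A, TRIM28 and H3K9me3, and chromosome X is near 0 in every panel.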

How the data were processed

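Per the submitters' processing notes, reads were checked with FastQC 0.11.9, aligned with Bowtie2 2.2.5 to GRCh38 (hg38), and peaks were called with MACS2 2.2.7.1; deepTools 3.5.1 and ChIPseeker are named too. Their options, and sequencing totals, are not given in any source here. The deposited narrowPeak lists give each peak's fold (the authors' ratio over control), and the authors' −log10 p and −log10 q. All 3 are the authors' values and served to describe, rank and filter peaks. Peaks were called per library, with the control read from the list names.

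Peaks on chromosomes 1 to 22 and X were used. Overlap meant at least 1 bp. Bins were those with a summit in any list of the series, shRNA libraries included, so bin shares are not shares of the whole genome. Genes, biotypes and promoters came from RefSeq tables (GRCh38.p14, the files' build). Summit fragments and relative depth were recovered from fold and −log10 p (Poisson, 1 added to each side of the ratio; 29576, 32926 and 11374 input peaks matched within 0.0005) and checked on simulated data. No test was possible with 1 library per group. Intervals are exact Clopper-Pearson for shares and Poisson for ratios, at 95%, and cover counting error only; PCR copies are not independent molecules. Genes were named by this rule: per library the first 10 genes by −log10 p among input peaks found in the IgG list; regions with all 3 libraries in both lists that lie in a gene; the 5 fullest bins; the highest fold in each gene list; ARID1A, TRIM28 and SETDB1; and promoters with most libraries. Not every item this rule names is printed. Genes with most summits, other members of the gene lists and the AP-1 promoters were added after their values were seen. Members, lists, motifs and gene-free stretches were chosen with earlier results of these data known. Promoter sequence on chromosome 8 is not printed. Python 3.11.15 with numpy 2.4.6, pandas 2.3.3 and scipy 1.17.1 was used. Alternatives were the IgG lists, crossed controls, equal list lengths, strong peaks only, other overlap, window, extension and bin sizes, and lists without chromosome 8 or gene-free stretches.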

Additional observations from a re-analysis of the deposited data

Results flagged for a closer look

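The lists over input also hold peaks on sequences outside chromosomes 1 to 22 and X (unplaced, unlocalised and alternate sequences, and chromosome Y), which no comparison above uses. ARID1A had 96 of them (0.324% of its list), TRIM28 147 (0.444%) and H3K9me3 145 (1.26%). Over IgG they numbered 228 (0.432%), 528 (0.770%) and 493 (2.07%). The H3K9me3 share was the highest of the 3 in both lists. Of these peaks over input 3, 10 and 13 were strong, and for H3K9me3 that is nearly as many as the 15 on the chromosomes used.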

How the results depend on the processing

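Of 76 alternative values for 13 results, 15 stayed within the main interval, or within 1.5 times for the count of regions. No value has a replicate error. Weak peaks of about 10 fragments make up most of every list, list lengths differ, controls are shared, and counting intervals say nothing of other cultures. The cause of each change was not tested unless stated. No paired analysis was possible because each group is 1 library.

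For the share of ARID1A peaks at TRIM28 (6.15%), of ARID1A peaks at H3K9me3 (2.31%) and of TRIM28 peaks at H3K9me3 (2.90%), in that order: lists over IgG gave 5.44%, 2.06% and 3.77%; equal list lengths 3.52%, 2.92% and 3.86%; strong peaks only 0.479%, 0.359% and 13.4%; first list over input and second over IgG 2.60%, 0.646% and 1.59%; the reverse 2.28%, 0.655% and 0.747%; at least 50% of the first peak covered 2.65%, 1.13% and 1.75%. Merging peaks within 1 kb gave 6.95% and 2.72% for the ARID1A shares. Chosen after seeing the data, leaving out chromosome 8 gave 5.44%, 1.72% and 2.30%, and leaving out gene-free stretches gave 2.53% for TRIM28 at H3K9me3.

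For the near to far ratios (2.13, 1.99 and 2.73): over IgG 1.77 and 1.85 for the ARID1A pairs; equal lengths 2.70, 2.25 and 3.21; crossed controls 1.07, 0.817 and 1.49, and in reverse 1.46, 1.27 and 1.54; a far window of 20 to 50 kb 1.96 for ARID1A and TRIM28. TRIM28 and H3K9me3 had 2.93 without chromosome 8 and 2.58 without gene-free stretches.

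For genes with an ARID1A, TRIM28 or H3K9me3 peak (25.8%, 28.4% and 13.6%): over IgG 44.2%, 49.2% and 26.3%; equal lengths 14.0% and 14.7% for ARID1A and TRIM28, next to 13.6% for H3K9me3, whose list is the shortest and stays whole; without extension 24.5%, 27.3% and 13.1%; with 5000 bp 29.1%, 31.8% and 15.3%. For bins (38%, 51.4% and 25%): over IgG 62.3%, 78.7% and 47.2%; equal lengths 19.3% and 26.7%; bins of 1 Mb 78.2%, 87.6% and 73.6%, since larger bins fill sooner. The 210 regions with all 3 became 71 with equal lengths, 2 with strong peaks only, 16 in both control lists and 517 when joined within 1 kb.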
